A study of Mus musculus with 4 samples.

Results

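Transcript levels in *Ythdf2*-knockdown mouse embryonic stem cells (ESCs) that carried a wild-type YTHDF2 construct were compared with those of control ESCs, to ask which genes did not return to the control level and which went past it. The comparison was shYthdf2+DF2WT, a hairpin against *Ythdf2* together with wild-type YTHDF2, against shScram+EV, a scrambled hairpin together with the empty vector, with 1 library each. Genes were taken where the mean count over the 4 libraries of the experiment was at least 50 reads, which left 13995 of the 50559 genes in the table (27.7%). The cells of every group were E14 mouse ESCs, a male line, grown on gelatin with serum replacement and LIF. The other libraries were shYthdf2+EV, the same hairpin with the empty vector, and shYthdf2+DF2Mut, the hairpin with YTHDF2 mutated so that it does not bind m6A. By the study's account the hairpins were delivered by lentivirus and selected with puromycin and the YTHDF2 constructs were then introduced by transfection, the labels do not say which of the hairpins listed by the study was used, and nothing says how many clones a line holds. The ratios below were scaled by library size and are log2 values unless a fold is stated. Reads listed in a row are in the order control, knockdown, wild-type rescue and mutant, and coordinates are mm39 unless another build is given. No group had a replicate, so no difference has a replicate check, no test was made, and the 95% intervals cover counting error only.

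YTHDF2 is a cytoplasmic protein that binds N6-methyladenosine (m6A), the commonest internal mark of mRNA, through its YTH domain. It shortens the life of marked transcripts by bringing in the CCR4-NOT deadenylase, which removes the poly(A) tail. ESC cultures hold a small and changing number of cells in a 2-cell-like (2C-like) state, which express genes of the 2-cell embryo such as the *Zscan4* family.

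Totals were 32382858 reads in shScram+EV and 32584252 in shYthdf2+DF2WT, and the genes used here held about 99.6% of the reads of each library. Of the genes on either side of the count limit, 217 had a mean of 45 to 50 reads and were left out, and 272 had a mean of 50 to 55 reads and were kept. At 50 reads in each library the interval of a ratio reaches 0.86 to either side, and at 1000 reads it reaches 0.18. Mitochondrial genes took 8.44% of the reads in shScram+EV (95% Wilson interval 8.43 to 8.45) and 6.34% in shYthdf2+DF2WT (6.33 to 6.34). Markers of other cell types were detected, and only 1 of 24 endoderm, 1 of 19 trophectoderm, 2 of 21 germ-layer and 4 of 14 fibroblast markers had 3 reads or fewer in every library.

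*Ythdf2* itself (chr4:131912227-131939567 of mm39, minus strand) had 2806 control reads, 662 on knockdown, 7661 in the wild-type rescue and 6925 with the mutant. Its level with the wild-type construct was the highest of the 4 libraries, at 263% of control, a ratio of 1.39 (1.31 to 1.48). The gene counts do not separate the construct from the endogenous transcript. *Ythdf1*, which encodes a second cytoplasmic reader, had 3855 reads in control, 5992 on knockdown, 4325 in the wild-type rescue and 5567 with the mutant. *Ythdf3*, the third reader of the family, had 3985, 6190, 3711 and 5317 reads in the same order. Both paralogs were high in the libraries with little or mutated YTHDF2. With the wild-type construct they came to 0.11 (0.02 to 0.20) above control for *Ythdf1* and to -0.16 (-0.25 to -0.07) for *Ythdf3*.

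Few genes stood away from control with the wild-type construct. At least 2-fold higher than in shScram+EV were 109 genes (0.779% of the 13995), and 43 genes (0.307%) were at least 2-fold lower. For comparison, shYthdf2+EV had 497 genes higher (3.55%) and 333 lower (2.38%), and shYthdf2+DF2Mut had 443 higher (3.17%) and 346 lower (2.47%), each against the same shScram+EV library. Within 1.5-fold of control were 13164 genes (94.1%), and the median absolute log2 ratio was 0.17 with the wild-type construct, 0.24 on knockdown and 0.23 with the mutant. The interval excluded 0 for 103 of the 109 higher genes and for all 43 lower genes. Among the 4591 genes just under the limit, with means of 10 to 50 reads, 24.5% were at least 2-fold away from control, so the counts of genes depend strongly on the limit.

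The highest and the lowest genes were of different kinds. The 10 largest rises were the Y-linked genes *Eif2s3y*, *Uty* and *Ddx3y*, the pseudogenes *Gm7432*, *Gm3756*, *Rps10-ps1* and *Gm6489*, and the genes *Irgm1*, *Ccr4* and *Asxl3*. All 10 were also at least 2-fold up on knockdown. The 10 largest falls were *Slc7a11*, *Gm9029*, *Gm52128*, *Gm6741*, *Gm17082*, *Gm35474*, *Foxr1*, *Dnah11*, *LOC118567464* and *Pcdhgb2*. Of all 109 higher genes, 75 were also at least 2-fold raised on knockdown, 17 were raised between 1.5-fold and 2-fold, 15 lay within 1.5-fold of control and 2 were lowered. Of the 43 lower genes, 13 were also at least 2-fold lowered on knockdown, 6 were lowered between 1.5-fold and 2-fold, 21 lay within 1.5-fold and 3 were raised. Because both ratios share the shScram+EV library, a chance low or high count there moves both the same way.

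**Figure D1:**
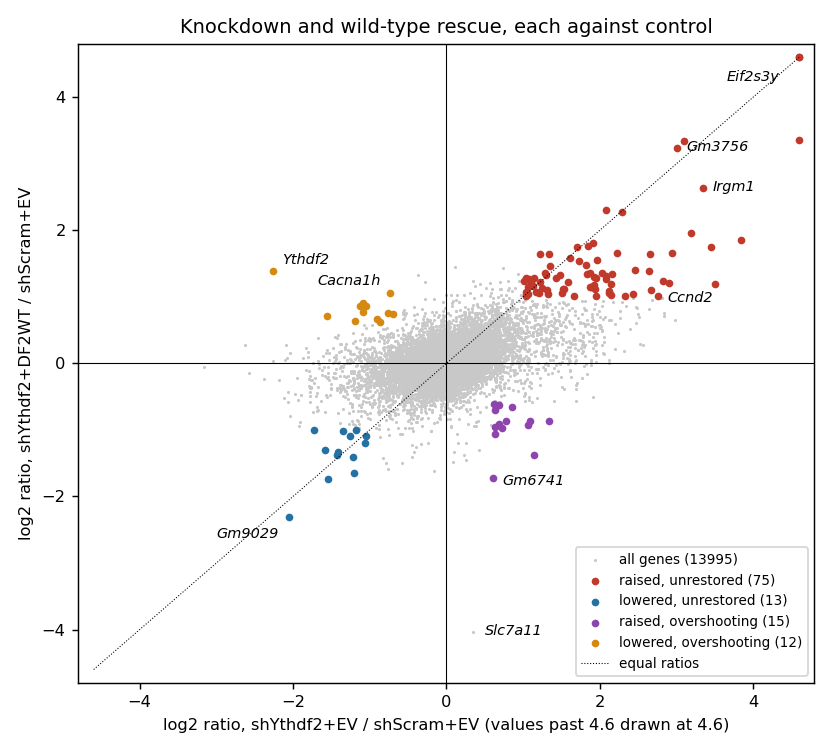
Each point is 1 of the 13995 genes, with the knockdown log2 ratio to shScram+EV on the x axis and the wild-type rescue ratio on the y axis, both drawn up to 4.6; colours mark the 4 classes described in the text and the dotted line marks equal ratios. Most genes lie near 0 on the y axis, *Ythdf2* lies at -2.27 and 1.39, and *Slc7a11* lies alone at -4.04 on the y axis.

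Most genes raised on knockdown came back toward control but stopped above it. The 497 raised genes had a median of 1.42 on knockdown, 0.48 after wild-type rescue and 1.30 with the mutant, all against shScram+EV. With the wild-type construct 291 of the 497 (58.6%) lay within 1.5-fold of control, 127 stayed between 1.5-fold and 2-fold above, 75 (15.1%) stayed at least 2-fold above and 4 fell at least 1.5-fold below. In all, 435 (87.5%) were still on the side of control on which the knockdown had put them, and the quartiles of the ratios were 0.20 and 0.79. The 333 lowered genes had medians of -1.23, -0.22 and -1.03 in the same order of libraries. Of these 274 (82.3%) lay within 1.5-fold of control, 39 stayed between 1.5-fold and 2-fold below, 13 (3.90%) stayed at least 2-fold below and 7 rose at least 1.5-fold above. For well-counted genes, with a mean of at least 200 reads, the medians with the wild-type construct were 0.45 (186 raised genes) and -0.14 (87 lowered genes). The choice of these genes used shYthdf2+EV and shScram+EV, so part of their return can follow from the choice alone.

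On a linear scale, where the control level is 0% and the knockdown level is 100%, the wild-type library sat at a median of 20.6% for the raised genes (quartiles 7.58% and 36.9%) and 22.5% for the lowered genes (-6.14% and 42.7%). On this scale the share left was thus of like size in both directions, whereas on the log2 scale it was 32.9% for raised and 15.7% for lowered genes. The raised genes of the 2C lists, 39 genes, sat lower, at a median of 6.64% (2.14% and 13.2%), while the 458 other raised genes sat at 22.5% (9.19% and 39.8%). The 9 Y-linked genes of the table, summed, gave 4 control reads, 672 on knockdown, 105 in the wild-type rescue and 602 with the mutant, which puts the wild-type library at 16.5%. Chromosome 12 also moved, with a median of -0.28 on knockdown and -0.10 with the wild-type construct over its 418 genes of at least 200 reads. With genes of chromosomes 12, X and Y left out, the wild-type medians were 0.50 for the raised and -0.20 for the lowered genes. Then 70 raised and 13 lowered genes were unrestored. What part the Y-linked and chromosome 12 differences between the libraries have in the return of genes elsewhere was not tested.

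**Figure D2:**
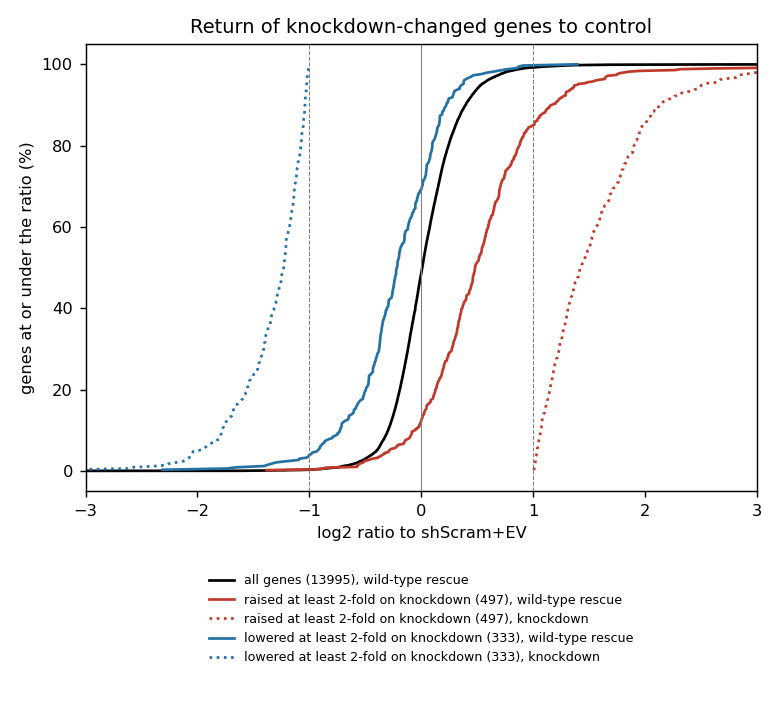
Cumulative share of genes, in percent on the y axis, at or under each log2 ratio to shScram+EV on the x axis, for all 13995 genes, the 497 raised and the 333 lowered on knockdown; solid lines are shYthdf2+DF2WT and dotted lines shYthdf2+EV. The solid red line is centred on 0.48 and the solid blue line on -0.22, so both groups moved most of the way to 0 and neither median reached it.

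The 75 unrestored raised genes were those at least 2-fold above control on knockdown and still so with the wild-type construct. They held 52 protein-coding genes, 17 pseudogenes and 2 lncRNAs. The other 4 were the transcribed pseudogenes *Gm6644* and *Ubb-ps*, and *LOC118567785* and *LOC118567504*, which had no RefSeq class listed. The class of pseudogenes alone made up 22.7% of the 75 and 4.82% of all genes used. With the wild-type construct 57 of the 75 were lower than on knockdown and 18 were as high or higher, and the interval of that ratio excluded 0 for 35. The mutant library was at least 2-fold above control for 54 of them. In 14 the mutant instead lay within 1.5-fold of control, and all 14 of these had a wild-type level within 1.5-fold of the knockdown level.

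Y-linked genes headed the unrestored genes, and the control library was the one nearly without them, although E14 is a male line. Whether the cells of the 4 libraries hold the Y chromosome alike was not tested, so for these genes a departure from control cannot be told apart from a difference in Y content. The 3 Y-linked genes described here reached a mean of 50 reads only through the libraries where they are high. *Eif2s3y*, which encodes the Y copy of a translation initiation factor subunit, had 0 control reads, 225 on knockdown, 35 in the wild-type rescue and 218 with the mutant. *Uty*, a histone demethylase family gene, had 0, 106, 24 and 111 reads, and *Ddx3y*, an RNA helicase gene, had 2, 261, 26 and 197. All 3 were near 0 only in the control library, and the wild-type library lay well under the other hairpin libraries. Against the floor of 3 reads in the control library, the wild-type level was at least 11.2-fold higher for *Eif2s3y* and at least 7.70-fold higher for *Uty*. *Ddx3y*, with 2 control reads, had a ratio of 3.36 (0.91 to 9.06).

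A second kind of unrestored gene was as high with the wild-type construct as on knockdown, and was at the control level with the mutant. *Gm3756*, a pseudogene (chr9:31846590-31848151), had 197 control reads, 1803 on knockdown, 1938 in the wild-type rescue and 230 with the mutant. The libraries fell into a low pair, control and mutant, and a high pair, knockdown and wild-type rescue. Its wild-type ratio was 3.24 (2.94 to 3.56), the mutant ratio 0.20 (-0.20 to 0.60), and wild-type against knockdown 0.23 (0.10 to 0.37). *Gm7432* (chr8:61833499-61834453) had 22, 218, 237 and 24 reads, with a wild-type ratio of 3.35 (2.48 to 4.42). *Rps10-ps1*, a ribosomal protein pseudogene (chr3:95529553-95530127), had 77, 430, 388 and 53 reads and a ratio of 2.27 (1.77 to 2.82). *Ubb-ps*, a ubiquitin pseudogene named after its values were seen, split the same way with 763, 1806, 1749 and 893 reads. Of the 14 genes with this split, 12 were pseudogenes or had predicted names.

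Few genes stayed low. Of the 13 genes at least 2-fold below control both on knockdown and with the wild-type construct, 12 had predicted or pseudogene names. Such names made up 11.8% of all genes used. The other gene, *Fbxl21*, encoding an F-box protein, was a named protein-coding gene. *Gm3226* (chr13:112730119-112731674) had 2080 control reads, 878 on knockdown, 833 in the wild-type rescue and 2053 with the mutant. Here control and mutant were the high pair, and the wild-type ratio was -1.37 (-1.54 to -1.21). *Gm9029* (chr10:118079388-118082233) had 107, 29, 22 and 95 reads, a ratio of -2.31 (-3.42 to -1.38). *Gm17082* had 222, 109, 73 and 254 reads and *Rab7-ps1* had 198, 94, 96 and 186, so both again paired control with mutant. The lncRNAs *Gm52128*, *Gm51785*, *Gm52709* and *Gm46594*, the others among the first 8, were at -1.74, -1.34, -1.30 and -1.41. The mutant library lay within 1.5-fold of control in 5 of the 13 and was at least 2-fold below it in another 5. Those 5, named after their values were seen, were *Gm46594*, *Gm32807*, *Gm8319*, *Gm52709* and *Fbxl21*, with mutant ratios of -2.43, -2.14, -2.02, -1.50 and -1.01. For none of the 13 genes did the interval of wild-type against knockdown exclude 0.

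A larger share of pseudogenes than of protein-coding genes was 2-fold apart in every pair of these libraries. Of 675 pseudogenes, 5.33% were at least 2-fold away from control with the wild-type construct, against 0.722% of 12468 protein-coding genes and 1.09% of all genes. Between the mutant and wild-type libraries the shares were 15.6% and 4.09%, against 5.11% of all genes. Many pseudogenes are near-identical copies of an expressed parent, reads that align to several places were left out of the counts, and which copy a read was given to is uncertain. What part the assignment of reads has in the split between pairs of libraries was not tested.

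**Figure D3:**
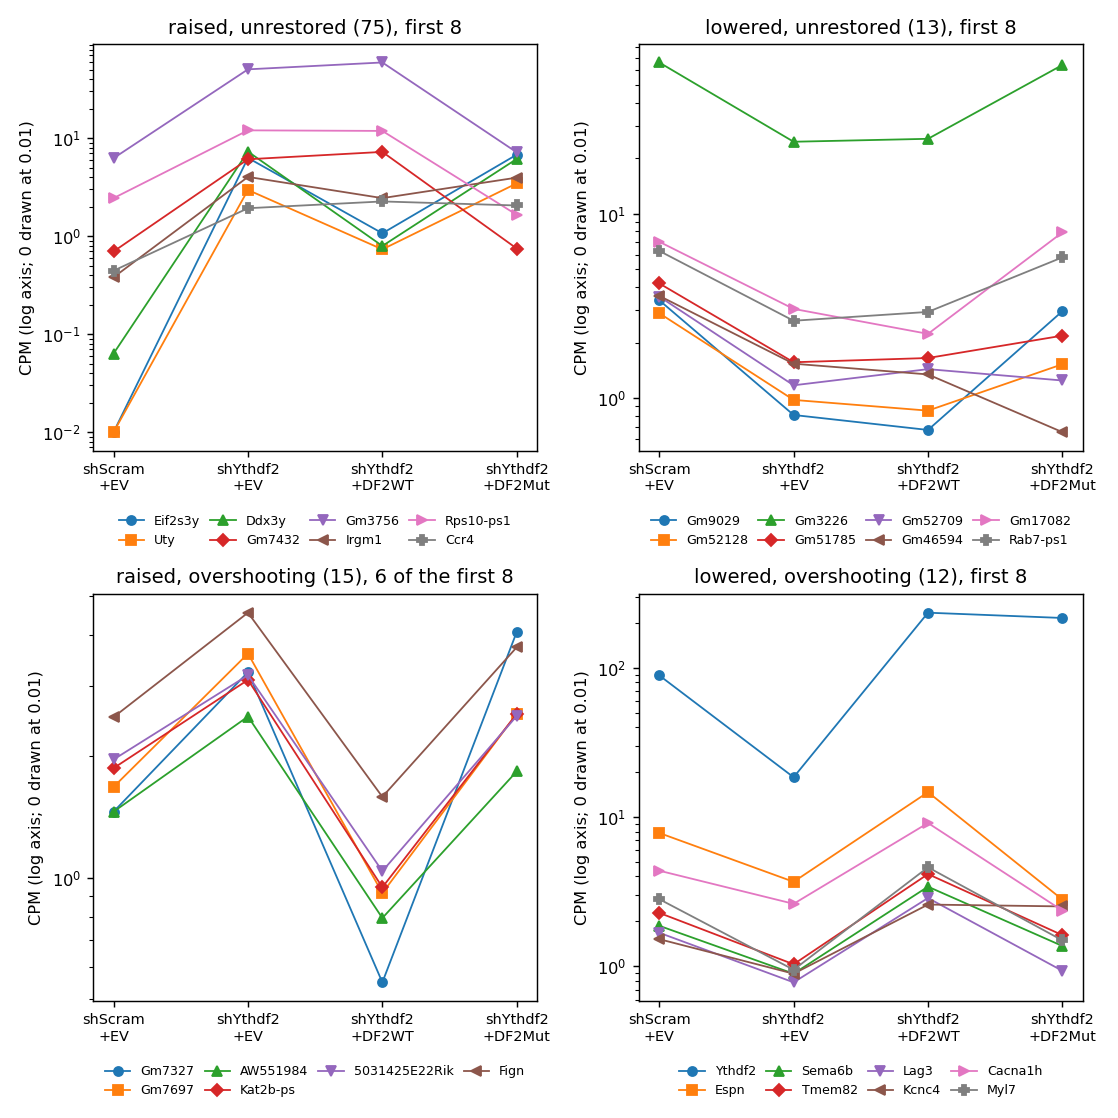
Library-scaled CPM (counts relative to library size, log axis) in the 4 libraries for genes among the first 8 of each class, 6 of them in the lower left panel, ranked by the smaller of their 2 absolute log2 ratios to shScram+EV; lines join 1 gene, and a value of 0 is drawn at 0.01. In the upper panels *Gm3756*, *Gm7432*, *Rps10-ps1*, *Gm3226*, *Gm9029*, *Gm17082* and *Rab7-ps1* pair control with the mutant, while in the lower panels the wild-type library lies beyond control for every gene drawn.

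Among the named protein-coding genes that stayed high, *Irgm1* and *Asxl3* lay between control and knockdown. *Irgm1*, an immunity-related GTPase gene (chr11:48756072-48762247), had 12 control reads, 144 on knockdown, 80 in the wild-type rescue and 127 with the mutant. The control library stood alone at the bottom, and the wild-type ratio was 2.64 (1.44 to 4.21). *Ccr4*, a chemokine receptor gene (chr9:114319384-114334544), had 14, 69, 74 and 66 reads and a ratio of 2.31 (1.16 to 3.76), so its 3 hairpin libraries were alike. *Asxl3*, a chromatin regulator gene, had 14, 149, 58 and 198 reads and a ratio of 1.96 (0.77 to 3.43), and the pseudogene *Gm6489* had 13, 218, 50 and 181 reads and 1.85 (0.61 to 3.40).

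*Sox3* was the highest of the formative and primed genes and stayed unrestored. This gene, which encodes a SOX factor of the neural lineage, had 54 control reads, 288 on knockdown, 179 in the wild-type rescue and 270 with the mutant. The wild-type library again lay between control and the others, at 1.67 (1.04 to 2.35). Other unrestored genes, named after their values were seen, were *Hoxd13*, a limb and genital HOX gene, with 54, 341, 149 and 278 reads and a ratio of 1.40 (0.76 to 2.10), and *Ccnd2*, which encodes cyclin D2, with 45, 349, 95 and 327 reads and 1.02 (0.27 to 1.82). *Twist1*, a mesenchymal transcription factor gene and the highest of the fibroblast markers, had 57, 206, 120 and 130 reads and a ratio of 1.01 (0.35 to 1.72). *Tbcc*, for a tubulin folding cofactor, had 209, 917, 531 and 520 reads, and *Hspa1a*, the inducible HSP70 gene, had 104, 459, 218 and 215. For *Tbcc* and *Hspa1a* the wild-type and mutant constructs gave like levels, at ratios of 1.29 and 1.29 for the first and 1.01 and 1.02 for the second.

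Overshoot was rarer than incomplete return when both were judged at 1.5-fold. It was seen in 15 raised and 12 lowered genes, against 357 and 104 that stayed on the knockdown side. Both ratios share the shScram+EV library, so a chance count there favours the knockdown side over overshoot. A gene was counted as overshooting where it was at least 1.5-fold away from control on knockdown and at least 1.5-fold away on the other side with the wild-type construct. This held for 15 raised genes that went below control, with the interval of the wild-type ratio excluding 0 for 10, and for 12 lowered genes that went above it, *Ythdf2* included, with the interval excluding 0 for 11. The backgrounds at 1.5-fold were 8.89% raised and 7.88% lowered on knockdown, and 4.05% higher and 1.89% lower after wild-type rescue. The raised overshooting genes had mean counts from 55.2 to 155 reads, so their counting error is large.

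The raised genes that overshot were, by the way they were chosen, lower with the wild-type construct than in control and on knockdown. In all 15 the wild-type library was also below the mutant library, but choosing genes for a low wild-type value favours this, so it adds no support. *Gm7327*, an X-linked pseudogene, had 46, 116, 18 and 131 reads and a wild-type ratio of -1.38 (-2.70 to -0.24). *Gm6741*, the raised gene that fell furthest, had 71, 123, 22 and 131 reads and a ratio of -1.72 (-2.87 to -0.74). In both the knockdown and mutant libraries were the high pair, and wild-type against knockdown was -2.53 (-3.76 to -1.54) for *Gm7327* and -2.33 (-3.43 to -1.42) for *Gm6741*. *Fign*, which encodes a microtubule-severing ATPase, had 79, 163, 52 and 120 reads and a ratio of -0.65, with an interval from -1.43 to 0.09 that includes 0. Also among the first 8 were *Gm7697*, *AW551984*, *Kat2b-ps* and *5031425E22Rik*, with ratios from -0.97 to -0.86.

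All 12 lowered genes that overshot were protein-coding, as were 89.1% of all genes used. After *Ythdf2* the best counted was *Espn*, for an actin-bundling protein (chr4:152204788-152236871), with 247 control reads, 132 on knockdown, 481 in the wild-type rescue and 90 with the mutant. The wild-type library was the highest and the mutant the lowest, and the wild-type ratio was 0.91 (0.59 to 1.23). *Cacna1h*, a T-type calcium channel gene (chr17:25593259-25655308), had 138, 94, 299 and 76 reads and a ratio of 1.06 (0.64 to 1.49). *Myl7*, the atrial myosin light chain gene, had 89, 34, 151 and 48 reads and 0.71 (0.15 to 1.28). The others among the first 8 were *Sema6b*, a semaphorin gene, *Tmem82*, *Lag3*, an immune checkpoint receptor gene, and *Kcnc4*, a potassium channel gene, with ratios from 0.76 to 0.86. The median transcript GC content was 57.8% for these 12 genes, 44.0% for the raised genes that overshot and 49.8% for all genes with a value. GC content moved with the ratio across all genes too. With GC content and exon length corrected for, 15 raised and 9 lowered genes overshot among the genes with a GC value. The part of GC content in the overshoot was not tested beyond these counts.

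A last group changed with the wild-type construct alone. The group was chosen for knockdown and mutant libraries both within 1.5-fold of control. It held 13 genes (0.093% of the 13995) at least 2-fold above control with the wild-type construct and 14 (0.100%) as far below. Their median mean counts were 63.5 and 61.6 reads, against 820 for all genes used. *Slc7a11* (chr3:50319385-50403947 of mm39, minus strand), which encodes the light chain of the cystine and glutamate antiporter that supplies cysteine for glutathione, had 213 control reads, 309 on knockdown, 13 in the wild-type rescue and 277 with the mutant. The wild-type library stood alone at 6.09% of control, a ratio of -4.04 (-5.50 to -2.96), and the ratio to the knockdown library was -4.39 (-5.84 to -3.33). It was the largest fall among the 13995 genes. On the same chromosome *Noct* (chr3:51131868-51159075) and *Elf2* (chr3:51160141-51248101) had wild-type ratios of 0.01 (-0.09 to 0.11) and -0.04 (-0.19 to 0.10).

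The promoter of *Slc7a11* is shown because no other gene fell as far and because *Slc7a11* is a known target of ATF4, the transcription factor of the amino acid response. It runs from 250 bases before to 50 bases after the RefSeq start, 5′ to 3′ on the minus strand (GRCm38.p6, chr3:50443564-50443863). Capitals mark matches to TGATGNAA on either strand, the composite element that ATF4 binds with a C/EBP partner.
Slc7a11 promoter: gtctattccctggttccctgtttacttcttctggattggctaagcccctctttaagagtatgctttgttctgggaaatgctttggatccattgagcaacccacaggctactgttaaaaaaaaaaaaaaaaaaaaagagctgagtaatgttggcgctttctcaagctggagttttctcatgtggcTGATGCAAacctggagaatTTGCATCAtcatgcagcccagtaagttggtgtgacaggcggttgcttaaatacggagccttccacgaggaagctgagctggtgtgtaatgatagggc
The matches begin 66 and 47 bases before the start. At least 1 match occurs in 3.97% of 32851 mouse promoters of this length, and 2 or more in 0.070% (23 promoters). A match is a description of these letters only. The 32 ATF4-linked stress and amino acid genes had medians of 0.11 for wild-type rescue, 0.15 on knockdown and 0.15 with the mutant. Of these 26 were above control and *Slc7a11* alone was at least 2-fold below it. *Stc2*, for a secreted stanniocalcin and the highest of the list, was at 0.95 with 128, 297, 258 and 215 reads. Among 22 glutathione transferase and NRF2 target genes, a list that also holds *Slc7a11*, the median was -0.10, with 16 below control, and the highest was *Gstt2* at 0.69.

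Other genes changed with the wild-type construct alone, named here after their values were seen, were less extreme. *Lamb3*, a laminin chain gene, had 60 control reads, 74 on knockdown, 171 in the wild-type rescue and 69 with the mutant, a ratio of 1.45 (0.84 to 2.11). *Pklr*, the liver and red cell pyruvate kinase gene, had 44, 41, 107 and 35 reads and 1.22 (0.49 to 2.01). In both the wild-type library was alone above the rest. Among the lower genes the pseudogene *Gm12751* was the best counted, with 660, 882, 263 and 977 reads and a ratio of -1.38 (-1.68 to -1.09). The protocadherin gene *Pcdhgb2* had 63, 76, 23 and 82 reads and -1.49 (-2.62 to -0.50). *Gm35474* had 69, 70, 23 and 50 reads and *LOC118567464* had 96, 73, 35 and 71, at -1.62 and -1.50. The remaining genes of the 10 largest falls had lower knockdown counts too. *Foxr1*, a forkhead factor gene, had 99, 66, 34 and 23 reads, lowest with the mutant, and *Dnah11*, an axonemal dynein gene, had 69, 45, 25 and 71.

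In these libraries the 2C genes lay closer to control after wild-type rescue than the other raised genes. Of 51 such genes, 39 were at least 2-fold raised on knockdown, and the median was 1.63 on knockdown, 0.16 after wild-type rescue and 1.49 with the mutant, against 0.00, 0.01 and -0.03 for all genes. With the wild-type construct 1 gene was at least 2-fold and 11 at least 1.5-fold above control, none was as far below, and 39 were above and 12 below control by any amount. In bulk RNA, fewer cells of the 2C-like type and less RNA per cell cannot be told apart. The families are given one by one, and differences between them were not tested. The 6 *Zscan4* genes, whose proteins act at telomeres in 2-cell embryos, had a median of 0.07 and ran from -0.29 for *Zscan4f* (356, 1315, 302 and 1326 reads) to 0.24 for *Zscan4c* (834, 3279, 1023 and 2503 reads). The 5 *Usp17l* genes, for deubiquitinases, had a median of 0.15, from -0.01 for *Usp17ld* to 0.29 for *Usp17lb*. The 3 *Tdpoz* and *Tcstv* genes had a median of 0.64, from -0.21 for *Tdpoz3* to 0.78 for *Tdpoz4*, with no interval excluding 0, and the median was 0.47 with GC content and exon length corrected for. Outside these families *Pramel24* (32, 198, 69 and 162 reads) was the highest at 1.04 (0.16 to 2.01), followed by *Arg2*, for an arginase, at 0.99 and *Tmem92* at 0.83, while *Pramel28* was the lowest at -0.57. The members of these families are near-identical, so which copy a read was given to is uncertain.

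Pluripotency genes stayed near control. The 16 core factors had a median of 0.14, from -0.23 for *Lin28b* to 0.49 for *Dppa5a*, and the 19 naive factors had a median of -0.02, from -0.25 for *Il6st*, a receptor subunit for LIF, to 0.36 for *Klf2*. No member of either list was 2-fold away, and only 1.09% of all genes used were. The formative and primed genes (18) had a median of 0.13, with *Sox3* the highest and *Zic5* the lowest at -0.23. With GC content and exon length corrected for, the core, naive and formative medians were 0.03, -0.03 and -0.005. Those of the trophectoderm, endoderm, fibroblast and germ-layer markers given next were then -0.12, -0.02, -0.12 and 0.09. The trophectoderm markers (12), at -0.63 on knockdown and -0.81 with the mutant, were at 0.01 with the wild-type construct, from -0.38 for *Esx1* to 0.79 for *Gata2*. *Esx1*, an X-linked placental homeobox gene, had 1223 control reads, 550 on knockdown, 976 in the wild-type rescue and 460 with the mutant. Control and wild-type rescue were thus the high pair. Summed over all 19 markers found, those under the count limit included, the level was 267 CPM in control and 172 on knockdown. It was 269 after wild-type rescue and 166 with the mutant. The endoderm markers (16) had a median of 0.03, from -0.94 for *Gata4* to 0.70 for *Srgn*, the fibroblast markers (5) had -0.08, from -0.55 for *Thy1* to *Twist1* at the top, and the germ-layer markers (9) had 0.25, with the highest at 0.71 for *Lefty2*, an inhibitor of NODAL that is also the highest of 16 NODAL and BMP genes (median 0.25).

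The machinery of m6A and of mRNA decay moved little. The 11 writers and erasers of m6A had a median of -0.04, from -0.21 for *Mettl3*, the catalytic subunit of the methyltransferase, to 0.10 for the demethylase gene *Alkbh5*. The 9 other readers had a median of 0.00. The 16 CCR4-NOT genes had a median of -0.10, 14 of them below control, from -0.30 for *Cnot2* to 0.29 for *Btg2*. The 25 other decay genes had a median of -0.08, from -0.47 for the decapping gene *Dcp1b* to 0.43 for *Pop5*. None of these genes was 2-fold away from control, and only 1.09% of all genes used were. The signs of the CCR4-NOT and of the writer and eraser medians turned when GC content and exon length were corrected for, to 0.00 and 0.03, and that of the writers and erasers also with total-count scaling, to 0.00.

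Most cytosolic ribosomal protein and nuclear-encoded respiratory chain genes were higher with the wild-type construct. Of 82 cytosolic ribosomal protein genes, 79 were above control, with a median of 0.37 against 0.20 on knockdown and -0.29 with the mutant. They ran from -0.12 for *Rpl3* to 0.62 for *Rps19*, and none was 2-fold away, against 1.09% of all genes used. The 75 nuclear-encoded respiratory chain genes had medians of 0.36, 0.33 and -0.11 in the same order, and 66 were above control, with *Cox7a2* the highest at 0.71. The 16 mitochondrially encoded genes had a median of -0.38, and 13 were below control, from -0.90 for *ATP6* to 0.27 for *COX3*. Correcting for GC content and length lowered the ribosomal protein median to 0.09 and the respiratory chain median to 0.10. Only 3 of the 16 mitochondrial genes had a GC value, so the correction is void for them. The 38 glycolysis and hypoxia genes were at a median of -0.28 on knockdown and 0.16 after wild-type rescue, with 31 above control, from -0.33 for *Gapdh* to 0.85 for *Higd1a*.

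**Figure D4:**
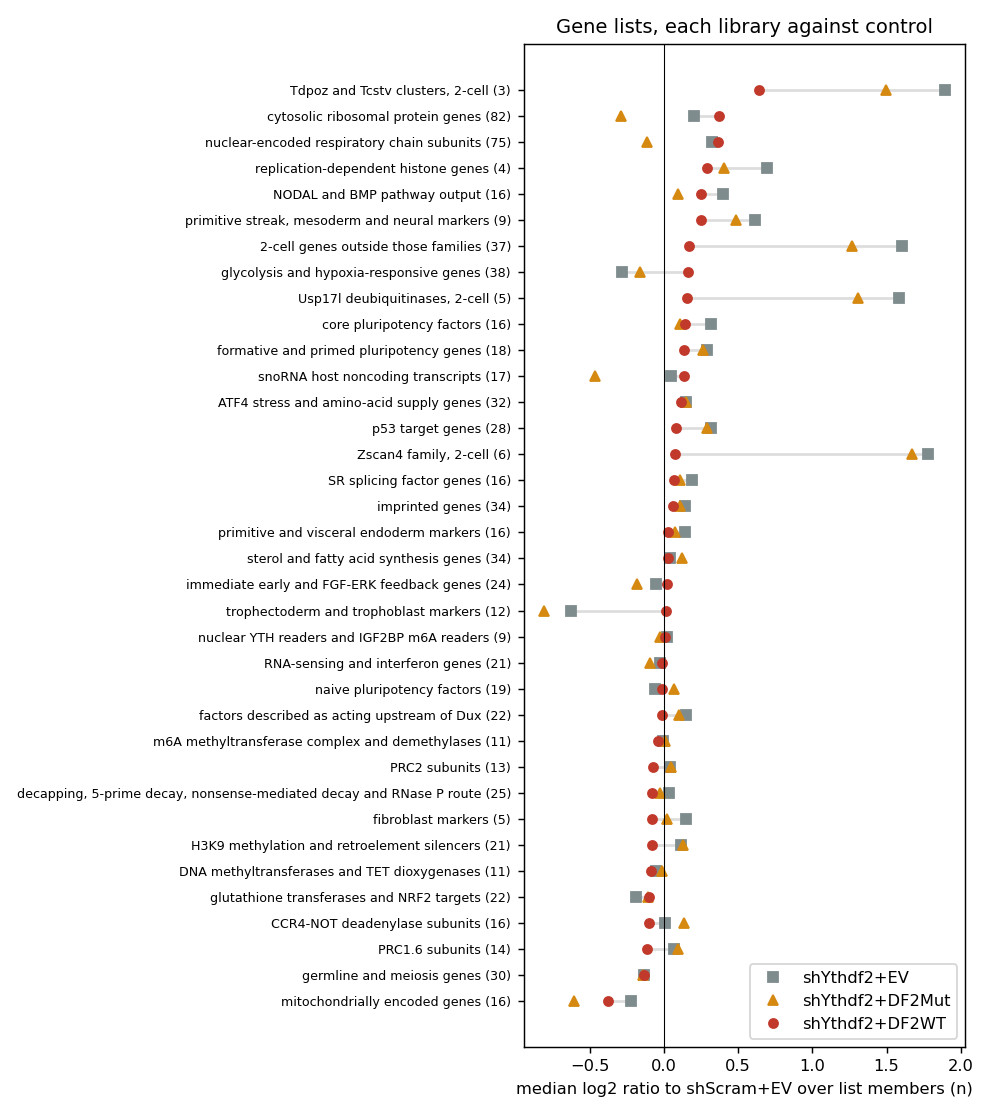
Median log2 ratio to shScram+EV on the x axis for each gene list on the y axis, with the number of genes in brackets; circles are shYthdf2+DF2WT, squares shYthdf2+EV and triangles shYthdf2+DF2Mut. The 2C lists lie far right on knockdown and with the mutant and near 0 with the wild-type construct, except for the 3 *Tdpoz* and *Tcstv* genes at 0.64.

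In the remaining lists single genes stood out. *Tdrd1*, which encodes a tudor protein of the piRNA pathway, was the lowest of 30 germline genes (median -0.14) at -1.06, with 119 control reads, 89 on knockdown, 59 in the wild-type rescue and 117 with the mutant. *Fas*, the death receptor gene, was the highest of 28 p53 targets (median 0.08) at 1.24 (0.34 to 2.25), with 29, 58, 72 and 46 reads. *H4c9*, a replication-dependent histone H4 gene, was the highest of 4 histone genes at 1.36, with 39, 163, 105 and 75 reads. *Ezhip*, for an inhibitor of PRC2, was the highest of 13 PRC2 genes (median -0.08) at 0.81, with 223, 888, 405 and 607 reads, and *Myc* was the highest of 22 factors described upstream of *Dux* (median -0.02) at 0.60. *Egr1* was the lowest of 24 immediate early genes (median 0.02) at -0.63 and *Atf3* the highest at 0.88. The H3K9 silencers (median -0.08), PRC1.6 (-0.12), DNA methylation (-0.09) and imprinted (0.06) lists had no gene 2-fold away from control. The same held for the sterol and fatty acid (0.02), interferon (-0.01), SR splicing (0.07) and snoRNA host (0.13) lists. Among all genes used 1.09% were 2-fold away.

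The wild-type ratio followed the base composition of the transcripts. Across the 13281 genes with a GC value its Spearman coefficient with GC content was 0.45, and with exon length across 13995 genes it was -0.28. Knockdown against control gave -0.05 and -0.10, and mutant against control -0.19 and 0.15. From the lowest to the highest of 5 equal groups of genes by GC content the wild-type median went from -0.14 to 0.18, and from the shortest to the longest of 5 groups by exon length from 0.15 to -0.08. These coefficients are across genes of the same libraries and describe them only. With 1 library per group, a difference between libraries of this kind and an effect of the construct cannot be told apart.

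**Figure D5:**
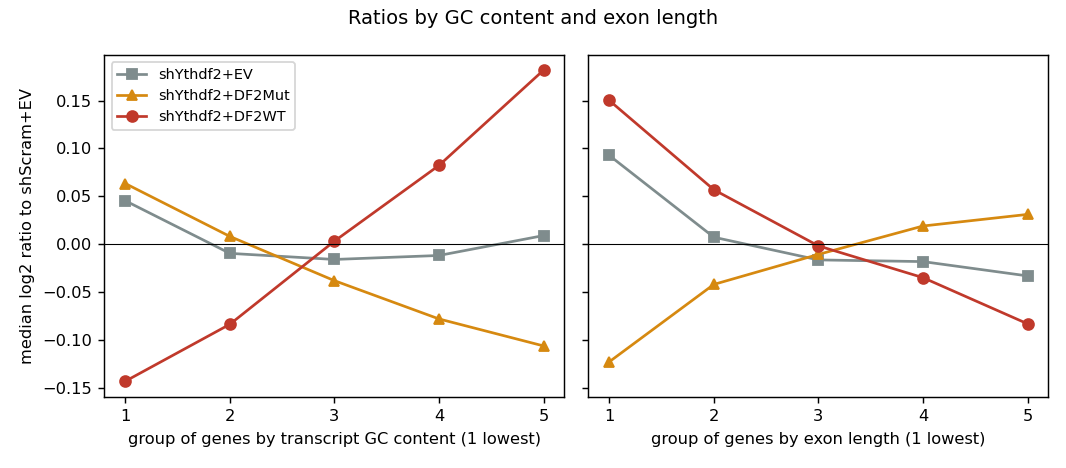
Median log2 ratio to shScram+EV on the y axis for 5 equal groups of the genes by transcript GC content (left) and exon length (right), lowest first on the x axis; circles are shYthdf2+DF2WT, squares shYthdf2+EV and triangles shYthdf2+DF2Mut. The wild-type medians rise from -0.14 to 0.18 with GC content and fall from 0.15 to -0.08 with length.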

How the data were processed

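Poly(A)+ RNA-seq of 4 E14 ESC libraries, 1 per group by the labels, was used. The deposited values are read counts per gene, made by the authors, per the file headers, with featureCounts 2.0.3 at mm39 RefSeq exons summed by gene symbol, unstranded although the kit marks strand, with reads rather than pairs counted. Overlapping and antisense genes are therefore uncertain. The submitters' processing notes name fastp 0.19.4, HISAT2 2.2.1 and DESeq2 1.40.2, and also mm10, whereas the file headers name mm39. Exon length is a deposited value. The study's methods describe replicates and the labels give 1 library per group.

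Counts were scaled by TMM (edgeR 4.0.16, R 4.3.3; factors 0.974 to 1.02) and 0.5 reads, scaled by library size, were added before ratios were taken. Intervals are 95% Clopper-Pearson on read pairs (reads divided by 2). Thresholds were 2-fold, or 1.5-fold for overshoot. GC content came from the longest GENCODE vM21 transcript of the same symbol (94.9% of genes). Biotypes and the promoter sequence came from RefSeq tables of GRCm38.p6. Calculations used Python 3.11.15, and the class calls were tested on simulated data. Genes named were the *Ythdf* readers, the 10 largest rises and falls, the first 8 of each class by the smaller of their ratios and, in each list, genes past 2-fold with the highest and lowest; some genes under this rule are not reported here. Members and gene lists were chosen with earlier results of these data known.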

Additional observations from a re-analysis of the deposited data

How the results depend on the processing

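No paired analysis was possible because each group had 1 library. The medians of the raised and lowered genes and the ratios of *Ythdf2* and *Slc7a11* kept their sign under each alternative run for them, whereas 17 list medians did not. DESeq2 size factors, a prior count of 5 and leaving out chromosomes 12, X and Y changed no count of genes by over 1.5 times. Total counts moved the median of the lowered genes to -0.18, and upper-quartile scaling moved the medians of the raised and lowered genes to 0.44 and -0.26. Correction for GC content and exon length, run on the 13281 genes with a GC value, moved *Ythdf2* to 1.49. Under it 74 genes were higher, against 109 as reported, and 31 lower, against 43. Unrestored were 55 raised and 9 lowered genes, against 75 and 13, and overshooting were 15 and 9, against 15 and 12.

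The limits on counts and fold moved the counts of genes by many times. With a mean of at least 10 reads there were 710 genes higher and 566 lower after wild-type rescue, 441 raised and 165 lowered genes unrestored, 123 raised and 116 lowered genes overshooting, and medians of 0.67 and -0.31. With a mean of at least 200 reads the counts were 13 and 4, 10 and 2, and 0 and 2, and the medians 0.45 and -0.14. At 1.5-fold throughout, 567 genes were higher and 264 lower, 357 and 104 were unrestored, and the medians were 0.37 and -0.15. At 2-fold throughout, 1 raised and 1 lowered gene overshot. With both intervals required to exclude 0, 7 raised genes overshot. Without pseudogenes and predicted genes, a choice made after seeing the data, 11 genes were lower, 1 lowered gene was unrestored and 8 raised genes overshot, while 75 were higher and 50 raised genes were unrestored. The causes were not tested beyond the number of genes that each setting keeps. Of 195 list medians under other scalings, the prior count and the correction, 17 changed sign, in 12 lists, all with reported medians between -0.10 and 0.13. Depth limits genes near 50 reads, where a 1.5-fold difference lies within the interval.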
